A study of Homo sapiens with 21 samples.

Results

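Gene expression was compared between 3 RNA-seq libraries of K562 cells labelled NMYB overexpression and 3 labelled MYB overexpression, which are 6 of the 21 libraries of the series. The comparison covered every gene that passed a filter on low counts in the table of gene counts, 15823 of the 61541 genes listed. K562 is an established human cell line, taken from chronic myeloid leukaemia in blast crisis, that carries the BCR-ABL1 fusion and keeps erythroid and megakaryocytic features. All groups share that background. The libraries labelled NMYB and MYB differ in the genotype named in the labels, and 3 empty-vector libraries of the same table served for orientation. No source used here spells out the label NMYB, but the series' design text names, beside MYB, a form that lacks the N terminus. The vector, its promoter, the time after transfer and whether replicates were separate cultures are not stated. The p-values thus reflect how far these libraries scatter, which may be technical. The other libraries of the series come from K562 cells that overexpress RNAs made at an enhancer upstream of MYB, with their controls.

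MYB is a transcription factor of blood progenitors that binds DNA through repeats near its N terminus, with a transactivation domain in the middle and a negative regulatory region towards the C terminus. It keeps erythroid and myeloid progenitors dividing and its level normally drops as they mature. The comparison of a truncated with the full-length form asks which genes respond differently to each of them.

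Total counts per library were between 16552237 and 19919918 for NMYB, between 19425246 and 24462819 for MYB and between 17672678 and 20276276 for the empty vector. All 6 pairs of replicates within the NMYB and MYB groups differed beyond sampling noise (chi-square over its degrees of freedom 1.53 to 7.16), so each was kept as a replicate. NMYB replicate 2 stood apart. Over the 6 libraries the first principal component held 32.6% of the variance and placed NMYB replicate 2 at -28.7, against -3.85 to 19.1 for the other 5. The libraries carried the markers of K562: 8 erythroid genes, among them HBG1, GATA1, TFRC and KLF1, summed to 1709 to 1721 CPM (counts scaled to library size by TMM) in NMYB and 1650 to 1690 CPM in MYB libraries, with both fusion partners BCR and ABL1 above 100 CPM. The platelet genes GP9, PF4 and PPBP, the granulocyte gene ELANE and the B cell gene MS4A1 were at 0 in all 6 libraries.

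The counts of MYB itself were examined first as a check of the labels. MYB (ENSG00000118513, chr6:135181315-135219173 on GRCh38, plus strand, GENCODE 29) had 215, 202 and 217 CPM in the libraries labelled NMYB, against 231, 228 and 222 CPM in those labelled MYB. The empty-vector libraries had 216, 210 and 219 CPM. NMYB minus MYB was -0.10 on the log2 scale (SE 0.0437, 95% interval -0.19 to -0.01), and in edgeR's quasi-likelihood test its Benjamini-Hochberg adjusted p was 0.229. Neither overexpression group passed the test against the empty vector: the log2 difference was -0.03 for NMYB (edgeR adjusted p = 0.727) and 0.08 for MYB (edgeR adjusted p = 0.23). The gene counts therefore did not show the overexpression that the labels name, and all directions given here rest on the labels. Counts per gene do not separate transcripts with and without the N-terminal coding part, and the strand setting of the counting is not given in the sources used here, so reads of an antisense transcript cannot be told apart from those of MYB.

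The relatives and neighbours of MYB did not pass the test either. MYBL1, the A-MYB gene, was expressed at a low level, with 1.87, 1.57 and 2.08 CPM in NMYB and 1.02, 1.51 and 0.963 CPM in MYB libraries, a log2 difference of 0.67 (edgeR adjusted p = 0.145). MYBL2, the cell cycle regulator B-MYB, averaged 248 ± 19.7 CPM in NMYB and 239 ± 13.2 CPM in MYB libraries (SD, n = 3 each), a difference of 0.06 that turned to -0.073 once the GC trend of each library was removed. HBS1L and AHI1, the genes on either side of MYB, differed by -0.07 and -0.13 (edgeR adjusted p = 0.417 and 0.263), and the value of HBS1L turned to 0.012 without the GC trend.

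Differences between the libraries were small. In edgeR's quasi-likelihood test 181 of 15823 genes passed a Benjamini-Hochberg adjusted p of 0.05, which is 1.14% of the genes tested. Of these, 82 (0.518% of the genes tested) were higher and 99 (0.626%) were lower in NMYB libraries, and 0 of them reached a 2-fold change. At an unadjusted p below 0.05 there were 2806 genes, and DESeq2 called 399, 1 of them with at least a 2-fold change. The NMYB and MYB values did not overlap for 3613 genes (22.8%), with NMYB above for 2070 (13.1%) and below for 1543 (9.75%). With RLE size factors in place of TMM, 68 genes were higher and 127 lower.

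The number of calls depended on single libraries. Without MYB replicate 1, 0 genes passed, while 2136 had an unadjusted p below 0.05. The count was 43 without NMYB replicate 1, 240 without NMYB replicate 2, 323 without NMYB replicate 3, 129 without MYB replicate 2 and 24 without MYB replicate 3. All 181 genes kept their sign in each of these 6 fits. Their NMYB and MYB values did not overlap for any of them, so leaving out 1 library could hardly turn a sign. The bars of genes called under each setting show that the count moved with the libraries and with the removal of sequence trends.

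**Figure D1:**
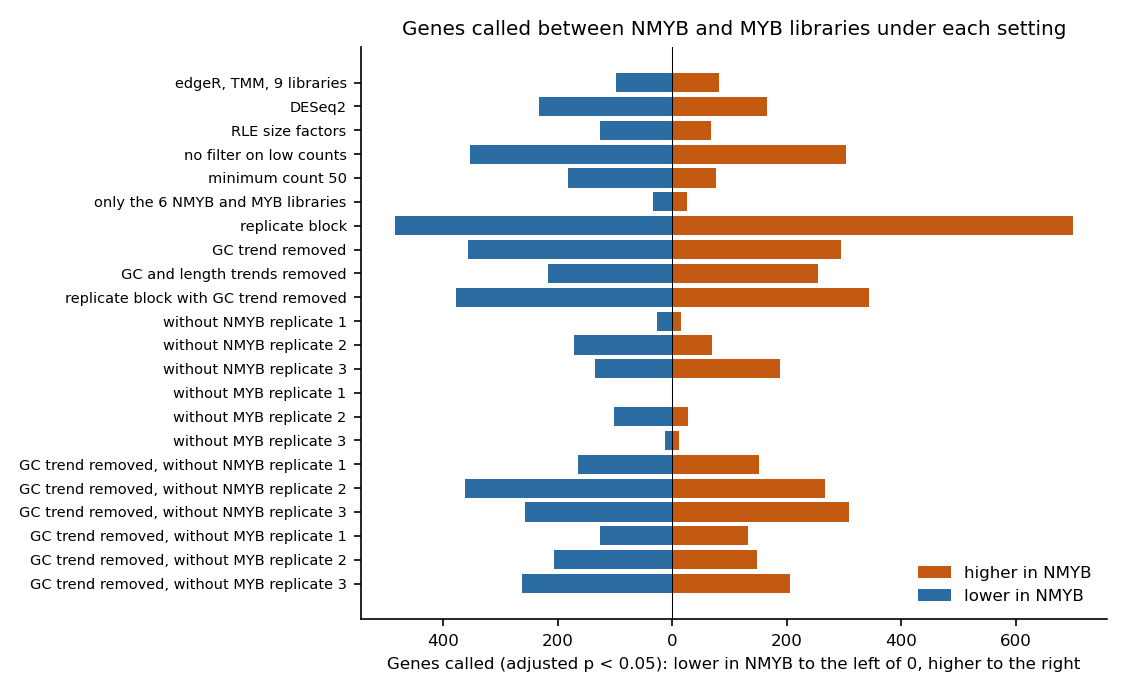
Number of genes with an adjusted p below 0.05 between the libraries labelled NMYB and MYB (x axis) under each setting (y axis), with genes lower in NMYB to the left of 0 and genes higher to the right. The count was 181 with edgeR and TMM over 9 libraries, 651 with each library's GC trend removed and 0 without MYB replicate 1.

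The counts of each library followed the GC content of the genes to a different degree. The slope of a library's log2 deviation from the gene mean on exon GC was 0.0197, 0.166 and 0.00571 per 10 percentage points in the NMYB libraries, against -0.0336, 0.00301 and -0.0880 in the MYB libraries. Empty-vector slopes were -0.0879, 0.0283 and -0.0134. NMYB replicate 2 had the steepest rise, MYB replicate 3 the steepest decline of these 6, and the 2 groups did not overlap. The mean slope was 0.0639 ± 0.0889 in NMYB and -0.0395 ± 0.0458 in MYB libraries (SD, n = 3 each), a difference of 0.103 (two-sided exact permutation p = 0.1, the smallest that 3 against 3 allow). Without NMYB replicate 2 the difference was 0.0523. Over genes with a mean of at least 50 counts it was 0.101, with groups that overlapped (exact permutation p = 0.2).

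**Figure D2:**
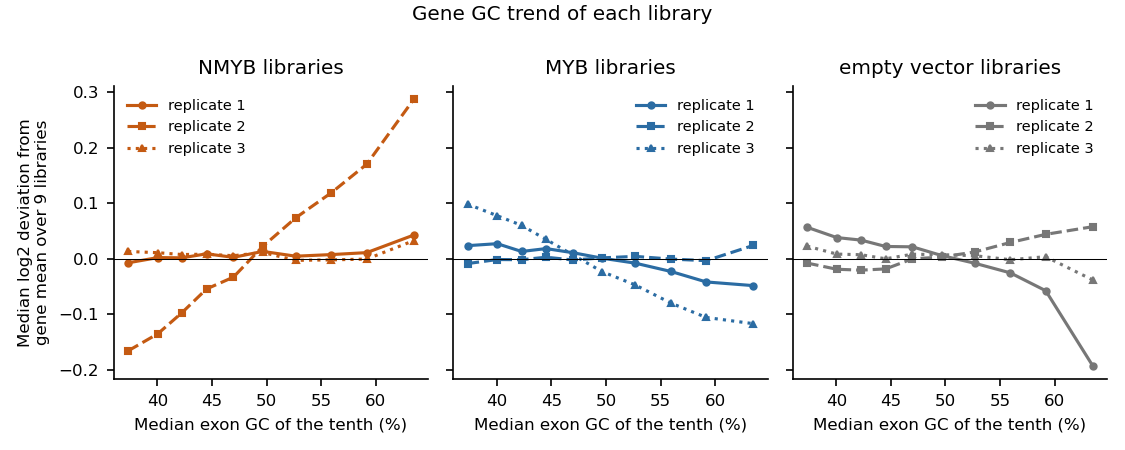
Median log2 deviation of genes from their mean over 9 libraries (y axis) against the median exon GC of 10 equal groups of genes (x axis, %), 1 line per library, for the libraries labelled NMYB, MYB and empty vector. In the group with the highest GC the median deviation was 0.04, 0.29 and 0.03 in NMYB and -0.05, 0.02 and -0.12 in MYB libraries.

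The genes called followed this trend. The median log2 difference between NMYB and MYB libraries was -0.08 in the GC decile with the lowest GC and 0.18 in the highest, against 0.02 over all genes tested. In the lowest decile 1 gene was higher and 29 were lower in NMYB libraries, and in the highest decile 20 were higher and 0 lower. Genes called higher had a median exon GC of 56.1% and genes called lower of 41.1%, against 48.2% for genes not called.

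Exon length also set the groups apart. The slope per doubling of exon length was -0.0207, -0.0331 and -0.0139 in NMYB libraries, against 0.00428, -0.00717 and 0.00609 in MYB libraries, with no overlap. The empty-vector libraries had 0.0249, 0.0171 and 0.0225. The difference of the NMYB and MYB means was -0.0236 (two-sided exact permutation p = 0.1, the smallest possible), and -0.0588 over protein-coding genes. In the decile of longest exons 0 genes were higher and 69 lower in NMYB libraries, and in the shortest 9 were higher and 0 lower. Genes called lower had a median exon length of 12302 bases and genes called higher of 2369 bases. GC and length trends moved with the groups, and their part in the differences of single genes was not tested beyond the values given with each trend removed.

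**Figure D3:**
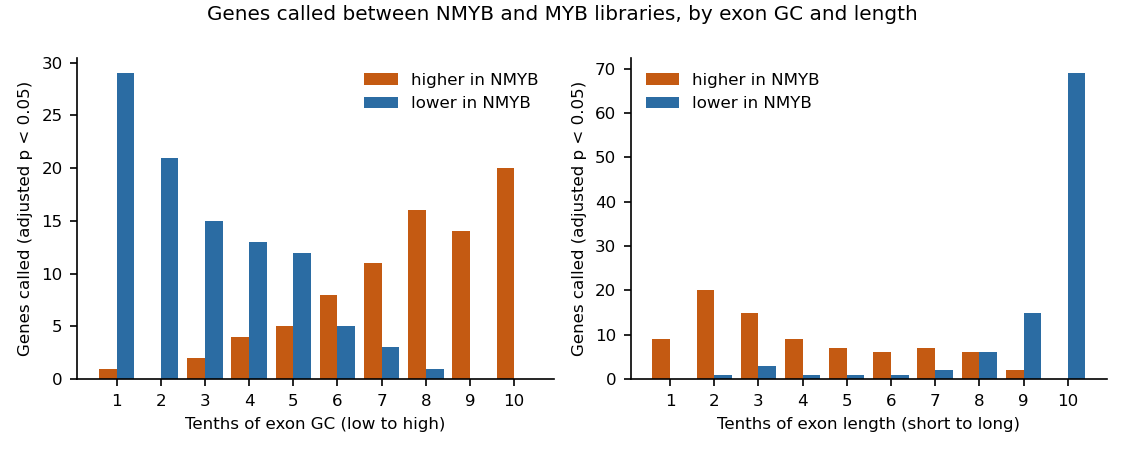
Number of genes called higher or lower in the libraries labelled NMYB than in those labelled MYB (y axis), in 10 equal groups of genes by exon GC (left, low to high) and by exon length (right, short to long). Genes lower in NMYB peak at 29 in the lowest GC group and at 69 in the longest exon group, and genes higher in NMYB at 20 in the highest GC group.

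With each library's GC trend removed, 651 genes (4.11%) were called, 294 higher (1.86%) and 357 lower (2.26%) in NMYB libraries. Of the 181 first calls, 162 were among them. The median difference was then 0.00 in the lowest and 0.01 in the highest GC decile. The length trend remained in part, with 4 genes higher and 163 lower in the decile of longest exons. With both trends removed 471 genes were called, 254 higher and 217 lower, which held 120 of the 181. Of the 69 called genes that the selection rule named, 64 were also called with the GC trend removed.

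Among the genes higher in NMYB libraries, EGR1 (chr5:138465490-138469315, plus strand), an immediate early zinc finger transcription factor, had 350, 374 and 358 CPM in NMYB libraries, against 285, 310 and 283 CPM in MYB libraries. All NMYB values lay above all MYB values, and the difference was 0.30 on the log2 scale (SE 0.0436, edgeR adjusted p = 0.00888), or 0.23 with the GC trend removed. Both groups lay below the empty vector, which had 465, 462 and 462 CPM.

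The sequence before the EGR1 start is printed with that of PHIP, a gene lower in NMYB libraries and described below. The 2 promoters belong to genes called in opposite directions, and the core letters that MYB binds are marked. They are the 250 bases before the RefSeq start on the gene's own strand (GRCh38.p14; chr5:138465229-138465478, plus strand, for EGR1 and chr6:79078255-79078504, minus strand, for PHIP). Among protein-coding genes called with and without the GC trend and with a promoter in the RefSeq table used, each had the smallest p of its direction among those whose window overlaps no annotated exon. Capitals mark AACNG, the MYB core, on either strand.
EGR1: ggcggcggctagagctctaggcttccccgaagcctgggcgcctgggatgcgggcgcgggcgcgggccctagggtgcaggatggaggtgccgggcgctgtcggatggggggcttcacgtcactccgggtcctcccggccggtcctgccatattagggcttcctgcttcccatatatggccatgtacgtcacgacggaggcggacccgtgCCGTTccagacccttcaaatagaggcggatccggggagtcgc
PHIP: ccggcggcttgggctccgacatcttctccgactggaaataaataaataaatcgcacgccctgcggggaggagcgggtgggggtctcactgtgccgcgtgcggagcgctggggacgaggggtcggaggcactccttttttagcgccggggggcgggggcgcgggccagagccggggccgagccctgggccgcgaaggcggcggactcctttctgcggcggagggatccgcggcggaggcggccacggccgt
The EGR1 window held 1 AACNG, on the minus strand, and that of PHIP 0. In the same window 70.6% of 27305 RefSeq promoters held at least 1, as did 68% of the genes tested that have a promoter there. The share was 75% of 60 genes called higher and 67.9% of 78 called lower. For the longer TAACNG or CAACNG it was 28.3% and 39.7%, against 36.5% of genes tested. Presence or absence of these letters is thus common and says nothing of binding here. The GC content of the windows was 68.4% for EGR1 and 71.6% for PHIP. The windows of genes tested had a median of 64.8%, with quartiles of 57.6% and 71.6%.

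ALDOC, a glycolytic aldolase, had 77.5, 80.6 and 69.4 CPM in NMYB and 60.7, 56.7 and 54.3 CPM in MYB libraries, a difference of 0.40 (SE 0.0627, edgeR adjusted p = 0.00888). PLCD1, a phospholipase C that makes second messengers, averaged 47.3 ± 4.03 CPM in NMYB and 36.0 ± 1.00 CPM in MYB libraries (SD, n = 3 each), a difference of 0.39 (edgeR adjusted p = 0.00888) that was 0.25 with the GC trend removed. CD69, an early activation antigen of leukocytes, averaged 35.7 ± 1.23 and 27.0 ± 0.378 CPM in NMYB and MYB libraries (SD, n = 3 each), a difference of 0.40 (edgeR adjusted p = 0.00918). The groups did not overlap for any of these genes, and all of them were higher in the empty-vector libraries than in the other 6: ALDOC had 151 to 167 CPM there, PLCD1 118 to 122 CPM and CD69 53.5 to 60.6 CPM. Set against the empty vector, ALDOC differed by -1.07 in NMYB and -1.47 in MYB libraries, PLCD1 by -1.35 and -1.74, and CD69 by -0.70 and -1.10; these comparisons share their libraries with each other and with the contrast of NMYB and MYB. A gene without a symbol in the annotation used here, ENSG00000289609, showed the same order of groups, with 6.16, 6.47 and 6.04 CPM in NMYB, 4.03, 3.25 and 4.21 CPM in MYB and 25.5 to 27.8 CPM in empty-vector libraries (NMYB minus MYB 0.70, edgeR adjusted p = 0.0125).

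Other genes were on average highest in NMYB libraries and lowest with the empty vector. RNASET2, a lysosomal ribonuclease, had 40.7, 48.9 and 39.4 CPM in NMYB, against 26.5, 32.1 and 30.6 CPM in MYB libraries and 24.1 to 26.1 CPM with the empty vector. The NMYB and MYB values did not overlap, and NMYB minus MYB was 0.53 (SE 0.0831, edgeR adjusted p = 0.00888), and 0.50 with the GC trend removed. COX5A, a subunit of cytochrome c oxidase, averaged 159 ± 6.44 CPM in NMYB and 130 ± 4.70 CPM in MYB libraries (SD, n = 3 each), a difference of 0.29 (edgeR adjusted p = 0.013), with 100 to 113 CPM in the empty vector. GADD45GIP1, a protein of the mitochondrial ribosome, differed by 0.48 (edgeR adjusted p = 0.0105). RILP, which links Rab7 on late endosomes and lysosomes to the dynein motor, differed by 0.50 (edgeR adjusted p = 0.0129), and CST3, the secreted protease inhibitor cystatin C, by 0.49 (edgeR adjusted p = 0.0159). The difference of RILP was 0.31 with the GC trend removed, and that of GADD45GIP1 was 0.32 with GC and length trends removed.

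Among called genes of at least 5 CPM that carry a symbol, the largest fitted differences belonged to genes of low or moderate level. FADD, an adaptor of death receptors named after its value was seen, differed by more (0.79; 7.66 ± 1.73 CPM in NMYB and 4.47 ± 1.14 CPM in MYB libraries, SD, n = 3 each) but missed the threshold (edgeR adjusted p = 0.0515). PPM1M, a protein phosphatase, had 6.41, 5.56 and 6.56 CPM in NMYB and 4.47, 3.68 and 3.75 CPM in MYB libraries, a difference of 0.64 (SE 0.133, edgeR adjusted p = 0.0312). ID1, an inhibitor of basic helix-loop-helix transcription factors, had 48.1, 57.0 and 44.7 CPM in NMYB and 33.3, 33.9 and 33.6 CPM in MYB libraries, a difference of 0.57 (SE 0.115, edgeR adjusted p = 0.0418). For both genes every NMYB value was above every MYB value. The differences were 0.54 and 0.46 with the GC trend removed, and both genes were called in 1 of the 6 fits with a library left out. Other genes of this set were NT5DC4 (0.55), ACRBP (0.54), CLEC11A (0.53), MHENCR (0.47), MED19 (0.46) and C12orf57 (0.45), and the 12 called genes with the largest positive difference lay between 0.45 and 0.64. With a library left out C12orf57 was called in 0 of 6 fits, NT5DC4, CLEC11A and MHENCR in 1, ACRBP in 2 and MED19 in 3. The difference of CLEC11A was 0.33 with the GC trend removed and 0.29, no longer called, with GC and length trends removed (edgeR adjusted p = 0.095).

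**Figure D4:**
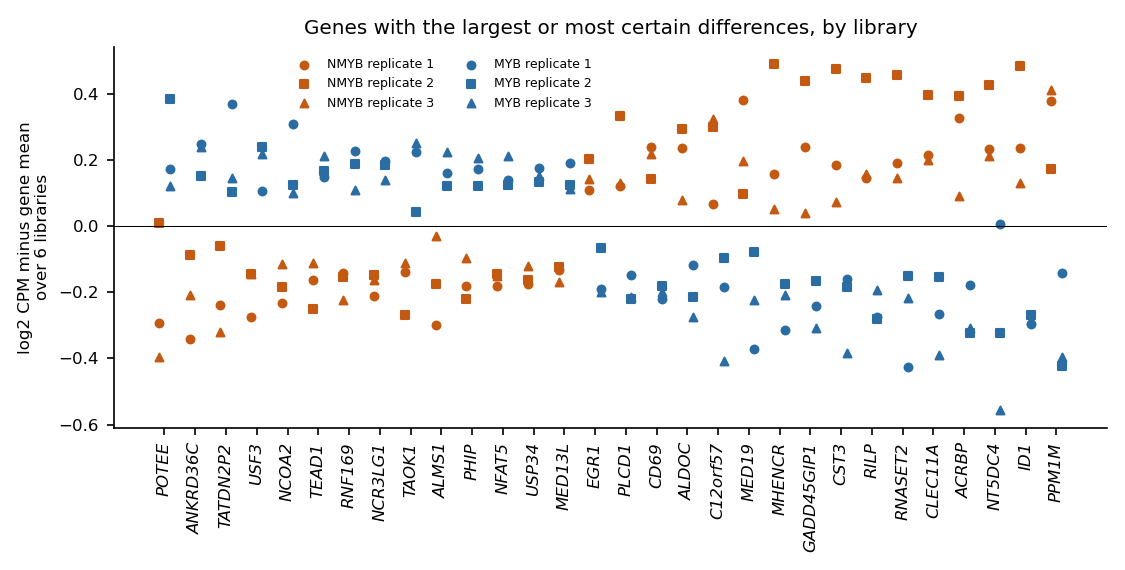
log2 CPM of each library minus the gene's mean over the 6 libraries (y axis) for the genes with the largest or most certain differences (x axis, ordered by fold change), with libraries labelled NMYB left of those labelled MYB in each column and a marker shape per replicate. NMYB and MYB values do not overlap for any gene shown, which holds for every gene called and was required of the genes of largest change. NMYB replicate 2 is often the highest point among genes higher in NMYB.

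Ribosomal protein genes were called in 1 direction. Of the large subunit, 7 of 47 tested genes were higher and 0 lower in NMYB libraries, with a median log2 difference of 0.12 over the list and 0.02 over all genes tested. Of the small subunit, 4 of 34 were higher and 0 lower, with a median of 0.14. Over all genes tested 0.518% were higher and 0.626% lower, and 1.86% and 2.26% with the GC trend removed. RPL13A had 2385, 2533 and 2304 CPM in NMYB, against 2098, 2060 and 2130 CPM in MYB libraries, without overlap (log2 difference 0.20, SE 0.0386, edgeR adjusted p = 0.0208). RPS14 had 1128, 1196 and 1081 CPM in NMYB and 1017, 992 and 986 CPM in MYB libraries, also without overlap (0.18, SE 0.0397, edgeR adjusted p = 0.0338). RPL12, RPL41, RPL10A, RPS26 and RPS3 were called with differences of 0.14 to 0.18. With the GC trend removed 17 large and 16 small subunit genes were higher and 0 lower. With GC and length trends removed 14 and 10 were higher, against 254 higher and 217 lower of all 15823 genes tested. RPL10A was not called without the GC trend (0.06, edgeR adjusted p = 0.532). RPL13A, at 0.12 without the GC trend, was not called without both trends (0.09, edgeR adjusted p = 0.0588). RPL12 was at 0.10 without both trends. The counts of large and small subunit genes were 7 and 5 without NMYB replicate 2, 12 and 12 without NMYB replicate 3, and 0 and 0 without any 1 of the other 4 libraries. Ribosomal protein genes have many processed pseudogenes, so reads may be divided among copies.

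Nuclear genes of oxidative phosphorylation showed a like median, 0.12 over 78 tested genes. Of these, 3 were higher and 0 lower, against 0.518% and 0.626% over all genes tested. Beside COX5A these were NDUFS5, a subunit of complex I, with 345, 360 and 323 CPM in NMYB and 302, 297 and 285 CPM in MYB libraries (0.22, SE 0.0447, edgeR adjusted p = 0.0305), and COX6B1, a subunit of complex IV (0.18, edgeR adjusted p = 0.0468). The groups did not overlap for NDUFS5. With the GC trend removed 12 genes were higher (1.86% over all genes tested) and COX6B1 was not (0.09, edgeR adjusted p = 0.159). The count was 0 without MYB replicate 1 or MYB replicate 3, 1 without NMYB replicate 1 or MYB replicate 2, 3 without NMYB replicate 2 and 5 without NMYB replicate 3. The 15 genes encoded by mitochondrial DNA had a median of -0.01, with 0 called, and the nuclear genes of the mitochondrial ribosome had a median of 0.07 over 77 genes, with 0 called.

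Genes of glycolysis and the hypoxia response had a median of 0.12 over 35 tested. Of these, 5 were higher in NMYB libraries and 0 lower, against 0.518% and 0.626% over all genes tested. Beside ALDOC these were PFKFB4, which sets the level of fructose 2,6-bisphosphate, DDIT4, a stress-induced inhibitor of mTORC1, the glycolytic enzyme GAPDH, and EGLN3, an oxygen-sensing prolyl hydroxylase named here to complete the list after its value was seen. PFKFB4 had 33.1, 37.9 and 34.7 CPM in NMYB and 27.0, 26.9 and 28.1 CPM in MYB libraries, a difference of 0.36 (SE 0.069, edgeR adjusted p = 0.019) without overlap. DDIT4 had 81.4, 97.3 and 79.9 CPM in NMYB and 68.5, 70.0 and 65.7 CPM in MYB libraries, a difference of 0.34 (SE 0.0726, edgeR adjusted p = 0.0345), also without overlap. Both were higher still in the empty-vector libraries, at 45.8 to 51.8 and 102 to 119 CPM. EGLN3 differed by 0.31 (edgeR adjusted p = 0.0474), and GAPDH by 0.18, which was 0.05 with the GC trend removed (edgeR adjusted p = 0.491). DDIT4 was at 0.19 with GC and length trends removed. Without the GC trend 9 genes of the list were higher and 0 lower, against 1.86% and 2.26% over all genes tested. The count was 2 without NMYB replicate 1, 7 without NMYB replicate 2, 6 without NMYB replicate 3, 0 without MYB replicate 1, 1 without MYB replicate 2 and 1 without MYB replicate 3.

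Among the genes lower in NMYB libraries, USP34 (chr2:61187463-61470769, minus strand), a deubiquitinase of the Wnt pathway, had 128, 129 and 133 CPM in NMYB libraries, against 163, 158 and 160 CPM in MYB libraries. NFAT5, the transcription factor of the osmotic stress response, had 72.9, 74.9 and 74.6 CPM in NMYB and 91.1, 90.2 and 95.8 CPM in MYB libraries. PHIP, a chromatin reader with bromodomains, whose promoter is printed above, had 92.5, 90.1 and 98.1 CPM in NMYB and 118, 114 and 121 CPM in MYB libraries. The groups were apart for all 3 genes, whose differences were -0.31, -0.32 and -0.33 (edgeR adjusted p = 0.00888 for each) and -0.23, -0.25 and -0.23 with the GC trend removed. With GC and length trends removed the differences shrank to -0.16, -0.19 and -0.18, and all 3 genes were still called. For USP34 and NFAT5 the empty-vector libraries lay near or above the MYB libraries, at 148 to 160 and 92.9 to 99.4 CPM, and for PHIP at 101 to 112 CPM.

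NCR3LG1, the tumour cell ligand of the natural killer receptor NKp30, had 66.5, 69.5 and 68.7 CPM in NMYB and 88.3, 87.4 and 84.8 CPM in MYB libraries, a difference of -0.35 (SE 0.0551, edgeR adjusted p = 0.00888) that was -0.34 with the GC trend removed. MDN1, a very large ATPase of ribosome assembly, had 322, 327 and 326 CPM in NMYB and 392, 382 and 372 CPM in MYB libraries, a difference of -0.23 (SE 0.0402, edgeR adjusted p = 0.0125) and -0.23 again without the GC trend. Neither gene's groups overlapped. AGO2, the slicer of RNA interference, differed by -0.26 (edgeR adjusted p = 0.0105), TEAD1, the DNA-binding partner of YAP, by -0.35 (edgeR adjusted p = 0.0112), and the kinase gene TAOK1 by -0.35 (edgeR adjusted p = 0.0125). XIST, the noncoding RNA that coats the inactive X chromosome, had the smallest p of all genes, with a difference of -0.42 (SE 0.0519, edgeR adjusted p = 0.00214) and -0.36 without the GC trend. With GC and length trends removed XIST was at -0.28, TAOK1 at -0.22, MDN1 at -0.17, AGO2 at -0.19 and TEAD1 at -0.27. NCR3LG1 was then at -0.33, and all of these genes were still called. POTEE (-0.45), ANKRD36C (-0.43) and TATDN2P2 (-0.42) were among the largest negative differences, but they have near-identical copies in the genome and their values are uncertain. Without MYB replicate 1 none of the genes named in this or the preceding paragraph was called, the adjusted p of XIST then being 0.0532.

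Cofactors of enhancers and of chromatin looping were lower in NMYB libraries for 5 of 29 tested genes and higher for 0, with a median of -0.11. These are long genes, with a median exon length of 8220 bases against 4278.5 over all genes tested. In the decile of longest exons 69 of 1545 genes were lower and 0 higher. Over all genes tested 0.626% were lower and 0.518% higher. MED1, the Mediator subunit that binds nuclear receptors and GATA1, had 169, 159 and 168 CPM in NMYB and 202, 191 and 194 CPM in MYB libraries (-0.24, SE 0.0469, edgeR adjusted p = 0.021). MED13, of the Mediator kinase module, differed by -0.25 (edgeR adjusted p = 0.0338), NIPBL, the loader of cohesin, by -0.24 (edgeR adjusted p = 0.0398), and KMT2A, a histone H3 lysine methyltransferase, by -0.21 (edgeR adjusted p = 0.0338). The last of the 5 was KMT2C (-0.21, edgeR adjusted p = 0.0479), another histone methyltransferase, named after its value was seen, and MED13L, a paralog of MED13 chosen by its p, differed by -0.29 (edgeR adjusted p = 0.0102). MED13, NIPBL, KMT2A and KMT2C lay in the decile of longest exons. MED1 values did not overlap between the groups. On the other side MED19, also a Mediator subunit, was higher in NMYB libraries, with 16.8, 13.8 and 14.8 CPM against 9.97, 12.2 and 11 CPM in MYB libraries (0.46, edgeR adjusted p = 0.0312). With the GC trend removed 8 genes of the list were lower (2.26% over all genes tested). With GC and length trends removed 3 were, against 217 of all 15823 genes tested. Without both trends MED13 (-0.12, edgeR adjusted p = 0.0615), NIPBL (-0.12, adjusted p = 0.0686), KMT2A (-0.09, adjusted p = 0.17) and MED13L (-0.12, adjusted p = 0.0567) were not called, while MED1 was (-0.20, adjusted p = 0.000481). The count was 1 without NMYB replicate 1, 9 without NMYB replicate 2, 4 without NMYB replicate 3, 0 without MYB replicate 1, 3 without MYB replicate 2 and 0 without MYB replicate 3.

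Of the splicing factors 3 of 53 were lower and 0 higher in NMYB libraries, with a median of -0.04. Their median exon length was 7309 bases, against 4278.5 over all genes tested. Over all genes tested 0.626% were lower and 0.518% higher. HNRNPA3, an RNA-binding protein of the hnRNP A family, had 924, 829 and 881 CPM in NMYB and 1044, 1011 and 1011 CPM in MYB libraries (-0.22, SE 0.0411, edgeR adjusted p = 0.0184), without overlap. RBM25, a regulator of splice site choice, differed by -0.26 (edgeR adjusted p = 0.0285), and SON, a large scaffold of nuclear speckles, by -0.17 (edgeR adjusted p = 0.0474). HNRNPA3 was at -0.14 and RBM25 at -0.17 with the GC trend removed, RBM25 at -0.13 with GC and length trends removed, and SON was then not called (-0.10, edgeR adjusted p = 0.0608). The count was 0 without MYB replicate 1 or MYB replicate 3 and 2 to 4 without any 1 of the other libraries. With the GC trend removed 8 splicing genes were lower (2.26% over all genes tested) and 1, SRSF7, was higher (0.12, edgeR adjusted p = 0.0269). Among 35 genes of mitosis 1 was lower and 0 were higher: MKI67, which encodes the proliferation antigen Ki-67, had 320, 296 and 317 CPM in NMYB and 379, 372 and 352 CPM in MYB libraries (-0.24, SE 0.0464, edgeR adjusted p = 0.0201, and -0.24 without the GC trend). MKI67 was at -0.19 with GC and length trends removed. Without MYB replicate 1, its adjusted p in edgeR was 0.163. CDKN1A, which encodes the cell cycle inhibitor p21, was higher in NMYB libraries, with 14.9, 16.4 and 14.4 CPM against 12, 11.9 and 10.2 CPM (0.41, SE 0.0912, edgeR adjusted p = 0.0359). Both genes' values were apart between the groups, and CDKN1A was called in 1 of 6 fits with a library left out.

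Erythroid genes showed few calls, as did all genes tested (0.518% higher and 0.626% lower). In these bulk libraries fewer cells of a kind and less RNA per cell cannot be told apart. GATA1, the master regulator of the erythroid lineage, had 236, 247 and 231 CPM in NMYB and 207, 214 and 207 CPM in MYB libraries, without overlap (0.18, SE 0.0432, edgeR adjusted p = 0.0474), and 249 to 262 CPM with the empty vector. With the GC trend removed its difference was 0.05 (edgeR adjusted p = 0.477). GATA1 was the 1 call among 17 erythroid transcription factors, whose median was 0.16 and 0.01 with the GC trend removed, and the 1 call among 21 reported target genes of MYB in blood cells, whose median was 0.03. It was called in 1 of 6 fits with a library left out. The 10 globin genes tested had a median of 0.20, or 0.11 with the GC trend removed, and 0 calls. HBG1, a fetal globin gene, had 242 ± 9.39 CPM in NMYB and 220 ± 5.31 CPM in MYB libraries (SD, n = 3 each). Its difference was 0.14 (edgeR adjusted p = 0.113), and it passed with the GC trend removed (0.16, edgeR adjusted p = 0.00543). With GC and length trends removed 0 globin genes were called. HBG2, the close copy of HBG1, overlapped between the groups, at 19.1 to 23.5 CPM in NMYB and 19.4 to 21.8 CPM in MYB libraries (edgeR adjusted p = 0.596). Reads may be divided between these copies, so the value of HBG1 is uncertain. Genes of haem synthesis (median 0.09 over 12), of iron handling (0.00 over 15) and of the red cell membrane (0.08 over 24) had 0 calls.

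Of 12 megakaryocyte and platelet genes tested 1 was called higher and 0 lower in NMYB libraries, and 8 had a difference above 0. Of 7 epithelial genes 1 was higher and 0 lower, and all 7 lay above 0. The 4 fibroblast genes tested had 0 calls and a median of -0.04. Over all genes tested 0.518% were higher, and 8715 of 15823 lay above 0. Median exon GC was 56.9% for the epithelial and 51.5% for the megakaryocyte list, against 48.2% over all genes tested. ITGA2B, the platelet integrin of the megakaryocytic lineage, had 23.6, 29 and 24.6 CPM in NMYB and 19.2, 21.1 and 19.5 CPM in MYB libraries (0.37, SE 0.0789, edgeR adjusted p = 0.0342). The markers GP9, PF4 and PPBP were at 0, and EPCAM and LYZ were not called (edgeR adjusted p = 0.407 and 0.574). KRT19, a keratin, had 126, 150 and 121 CPM in NMYB and 108, 113 and 102 CPM in MYB libraries (0.29, SE 0.0688, edgeR adjusted p = 0.0487), and the 3 epithelial markers summed to 180 to 207 CPM in NMYB and 157 to 171 CPM in MYB libraries, with CDH1 at 0 in NMYB and at most 0.0472 CPM in MYB libraries. NMYB and MYB values did not overlap for either gene. With the GC trend removed ITGA2B was at 0.24 and KRT19 at 0.17, and KRT19 was at 0.14 with GC and length trends removed. The 5 granulocyte and monocyte markers summed to 36.4 to 40.2 CPM in NMYB and 32.3 to 37.7 CPM in MYB libraries, nearly all of it LYZ. KRT19 was called in 1 and ITGA2B in 3 of 6 fits with a library left out.

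Single calls came from other lists. DLK1, an imprinted Notch ligand relative, differed by 0.38 (edgeR adjusted p = 0.0464), IFITM1, an interferon-induced membrane protein, by 0.21 (edgeR adjusted p = 0.0359), SOD1, the cytosolic superoxide dismutase, by 0.19 (edgeR adjusted p = 0.0418) and the proteasome subunit PSMB1 by 0.16 (edgeR adjusted p = 0.0487), and all of them stayed called with the GC trend removed. With GC and length trends removed SOD1 was not called (0.09, edgeR adjusted p = 0.15) and IFITM1 was at 0.12. Each of these 4 genes was called in 1 of 6 fits with a library left out. Among 415 genes of the ZNF family ZNF444 was higher (0.39) and ZNF106 (-0.23) and ZNF326 (-0.21) were lower, a share near that over all genes. ZNF326 was not called with the GC trend removed (-0.12, edgeR adjusted p = 0.122), and ZNF106 was at -0.15 with GC and length trends removed. Cholesterol synthesis (median 0.09 over 25), replication-dependent histones (0.13 over 40), DNA replication (0.03 over 38), tRNA synthetases (0.00 over 20) and heat shock chaperones (-0.03 over 21) had 0 calls. Over all genes tested 1.14% were called, so 0 calls in lists this small says little. Once the GC trend was removed, 2 cholesterol genes passed, among them INSIG1, the brake on SREBP processing, named after its value was seen (0.21, edgeR adjusted p = 0.00029). The histone gene H2AC6 (0.23, edgeR adjusted p = 0.00014) and the heat shock gene HSPB1 (0.28, edgeR adjusted p = 3e-05) were then higher too. DNAJB1, of the heat shock list, was lower (-0.12, edgeR adjusted p = 0.0335). These 3 genes were also named after their values were seen. Over all genes tested 1.86% were higher and 2.26% lower in that fit.

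**Figure D5:**
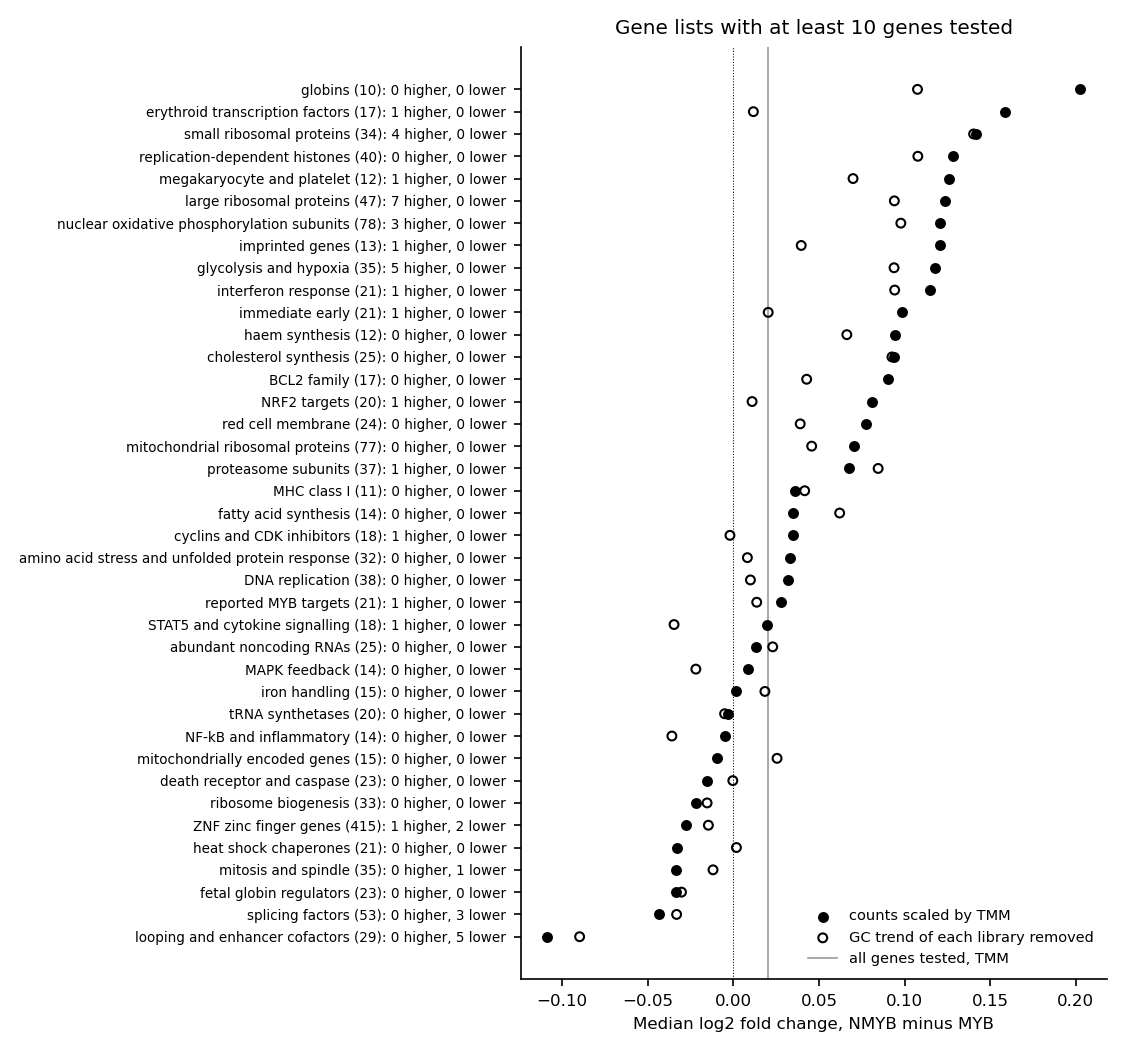
Median log2 fold change, NMYB minus MYB (x axis), of each gene list with at least 10 genes tested (y axis, with the number tested and the calls in each direction), from counts scaled by TMM (filled) and with each library's GC trend removed (open). The grey line marks the median of all genes tested, 0.02, and ribosomal, oxidative phosphorylation and glycolysis lists lie right of it while enhancer cofactors lie left of it.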

How the data were processed

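The authors deposited a table of raw counts per gene for 9 libraries, made with Trimmomatic 0.93, HISAT2 2.2.1 on GRCh38 and featureCounts 2.0.1, per the submitters' processing notes. Per the labels' protocols, cells grew in RPMI 1640 with 10% fetal bovine serum and 1 µg of total RNA went into each TruSeq RNA library. The annotation release, strand setting and treatment of multiply aligned reads are not given in the sources used here. Exon bin counts of the other libraries were not used here.

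Genes were filtered with filterByExpr at a minimum count of 10, scaled by TMM and tested with edgeR 4.0.16 in R 4.3.3 (robust quasi-likelihood F test, two-sided, Benjamini-Hochberg adjusted p below 0.05) on the 9 libraries together, with NMYB minus MYB as the contrast. Exon GC and length came from GENCODE 29 transcripts, which hold 58366 of the 61541 gene IDs. A lowess curve (span 0.3, on log2 of the count + 0.5) of each library against GC, and then length, was removed through offsets as an alternative. The other alternatives were DESeq2 1.42.0, RLE factors, other filters, fewer libraries and a replicate block. The code was tested on simulated data.

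Named genes were MYB with its relatives and neighbours, the 12 called genes of largest change in each direction with a mean of at least 5 CPM and no overlap, the 6 of smallest p, up to 4 called members of each list and up to 10 in each direction called with and without the GC trend. Some genes that meet this rule are not reported here. Members and lists were chosen with earlier results of these data known. Intervals cover counting and replicate spread as modelled by edgeR. Promoter sequences are from RefSeq (GRCh38.p14).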

Additional observations from a re-analysis of the deposited data

How the results depend on the processing

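The 181 calls became 399 with DESeq2, 656 with no filter on low counts, 60 with only the 6 NMYB and MYB libraries, 651 with the GC trend removed and 471 with GC and length trends removed. With a library left out there were 0 to 323, and 316, 629, 566, 260, 354 and 468 when the GC trend was also removed, without NMYB replicates 1, 2 and 3 and MYB replicates 1, 2 and 3 in that order, a combination chosen after seeing the data. The 0 genes of at least 2-fold became 1 with DESeq2, 17 with no filter, 10 with the GC trend removed and 7 with both trends removed, and 0 to 12 with a library left out. With RLE factors (195) and a minimum count of 50 (259) the count stayed within 1.5 times. The causes were not tested.

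Deviations of same-numbered NMYB and MYB libraries correlated at -0.0232 to 0.0994, and those of differently numbered ones at -0.122 to 0.0649. These values do not settle whether the replicate numbers pair the samples. A replicate block gave 1184 calls, 16 of them at least 2-fold, and a block with the GC trend removed gave 721 and 11.

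The MYB difference stayed negative and not called in the alternatives run (-0.05 to -0.13). HBS1L turned positive with the GC trend removed (0.012), with both trends removed (0.052), with the block and GC trend removed (0.013) and, with the GC trend removed, without NMYB replicate 1 (0.026), NMYB replicate 3 (0.027), MYB replicate 1 (0.0279) or MYB replicate 2 (0.0275). MYBL2 turned negative with the GC trend removed (-0.0727), both trends removed (-0.0969) and the block and GC trend removed (-0.0723). With a library left out it was -0.0249 (without NMYB replicate 2) to 0.0898, and with the GC trend also removed -0.0700, -0.0711 and -0.0746 without NMYB replicates 1, 2 and 3 and -0.0655, -0.0657 and -0.0845 without MYB replicates 1, 2 and 3. The length slope difference was -0.0420 over genes of at least 50 counts and -0.0588 over protein-coding genes. Of the 69 named calls, 5 were lost with the GC trend removed and 15 with both trends removed. Some of them were named because they stayed called with the GC trend removed, so these counts do not stand for all calls. MYBL1 was called in 1 alternative, with the GC trend removed and without MYB replicate 2 (0.96, edgeR adjusted p = 0.0469).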
